A study of Homo sapiens with 6 samples.

Results

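The seed family of miR-15, miR-16, miR-424 and miR-503 was followed in small RNA libraries of Caco-2 cells, an established line derived from a human colorectal adenocarcinoma. It was taken as 10 named entries of the deposited miRNA count table, 7 of them 5p miRNAs and 3 of them 3p miRNAs (the other strand of a hairpin), out of 2588 miRNAs listed. The labels name no transgene, knockdown or drug treatment for the cells of either group. Total RNA was first decapped and heat-denatured, and an aliquot set aside at that stage gave the 3 input libraries. The 3 m7G-RIP libraries came from the RNA then pulled down by an antibody against N7-methylguanosine (m7G), a methylated guanosine that also forms the mRNA cap. All libraries come from a single cell line, and the labels do not say whether libraries of a group are separate cultures, so the p-values measure the spread between these libraries, which may be technical. The intestinal miR-192-5p stood at 51291 to 59560 CPM (counts in every 1000000 counts of a library, after TMM scaling) in the input and the epithelial miR-200c-3p at 20107 to 21461, whereas miR-142-3p, a miRNA of blood cells, stood at 5.29 to 6.81. Of the mesenchymal miRNAs looked up, miR-143-3p stood at 169 to 184 CPM in the input and miR-145-5p at 3.67 to 4.62 CPM. Only miRNAs were counted, so no mRNA marker was analysed here.

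A microRNA guides the Argonaute proteins to mRNAs that pair with its seed, the bases 2 to 8 counted from its 5′ end, and lowers the output of these mRNAs. The miR-15/16 family is known for restraining the G1 to S step of the cell cycle through cyclin and CDK mRNAs and for targeting BCL2, and miR-15a and miR-16-1 lie in a chromosomal region often deleted in chronic lymphocytic leukaemia. miR-424 and miR-503 are made from a shared transcript, are known from muscle differentiation and target cell cycle regulators such as CDC25A. Each hairpin gives a 5p and a 3p strand, of which the one kept less often is called the passenger arm.

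The mature sequences (RefSeq, GRCh38.p14) are shown because members that share a seed, or nearly share a base composition, had different log2 enrichments. No difference between members was established by a test, as set out below. Capitals mark the seed. All 10 members matched an entry of the table.
hsa-miR-16-5p: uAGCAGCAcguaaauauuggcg
hsa-miR-15a-5p: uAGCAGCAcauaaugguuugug
hsa-miR-15b-5p: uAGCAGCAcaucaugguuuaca
hsa-miR-195-5p: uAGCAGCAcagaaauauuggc
hsa-miR-497-5p: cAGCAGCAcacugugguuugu
hsa-miR-424-5p: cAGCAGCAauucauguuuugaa
hsa-miR-503-5p: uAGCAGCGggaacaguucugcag
hsa-miR-16-2-3p: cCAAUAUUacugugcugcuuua
hsa-miR-15b-3p: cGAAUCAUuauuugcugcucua
hsa-miR-424-3p: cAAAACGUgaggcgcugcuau

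The first 6 of these share the seed AGCAGCA, which 7 mature miRNAs of the table carry. miR-503-5p has AGCAGCG and differs from them at the last seed base only. The 3 3p members have 3 different seeds, but each holds GCUGCU, the reverse complement of bases 2 to 7 of the 5p members, on the printed strand; 1.01% of the 2370 mature miRNAs in the table hold these letters. Lengths ran from 21 to 23 bases, so counts were compared between members without dividing by length.

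The hairpins lie in pairs. On the minus strand of chromosome 13 (GRCh38), MIR15A (chr13:50049119-50049201) overlaps an exon of the long noncoding RNA DLEU2 and MIR16-1 (chr13:50048973-50049061) lies in an intron of it. On the plus strand of chromosome 3, MIR15B (chr3:160404588-160404685) and MIR16-2 (chr3:160404745-160404825) lie 59 bases apart in introns of SMC4, which encodes a condensin subunit. On the minus strand of chromosome 17, MIR195 (chr17:7017615-7017701) and MIR497 (chr17:7017911-7018022) overlap exons of MIR497HG. On the minus strand of chromosome X, MIR503 (chrX:134546328-134546398) and MIR424 (chrX:134546614-134546711) overlap exons of MIR503HG. miR-16-5p has the same sequence at MIR16-1 and MIR16-2.

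Apart from miR-15b-3p, which was 11.8-fold lower in m7G-RIP than in the input, the tested members lay between 2.12-fold lower and 1.47-fold higher. The log2 enrichment, m7G-RIP relative to input, and its adjusted p came from edgeR's quasi-likelihood test with TMM scaling and Benjamini-Hochberg adjustment. It was fitted on the 800 miRNAs that passed a filter on low counts, and those with an adjusted p under 0.05 were called enriched or depleted. Of the 10 members, 8 were tested, and miR-195-5p and miR-497-5p had too few counts. Of the 8, 1 was enriched (miR-424-3p), 3 were depleted (miR-15b-3p, miR-15b-5p and miR-15a-5p) and 4 were not called. Among all tested miRNAs 40.1% were enriched and 38.1% depleted. The median log2 enrichment was -0.51 over the tested members and 0.16 over all tested miRNAs. In 4 of the 8, all m7G-RIP values lay below all input values, which held for 40.8% of all tested miRNAs, and in 0 of the 8 they lay all above, which held for 41.4%.

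**Figure D1:**
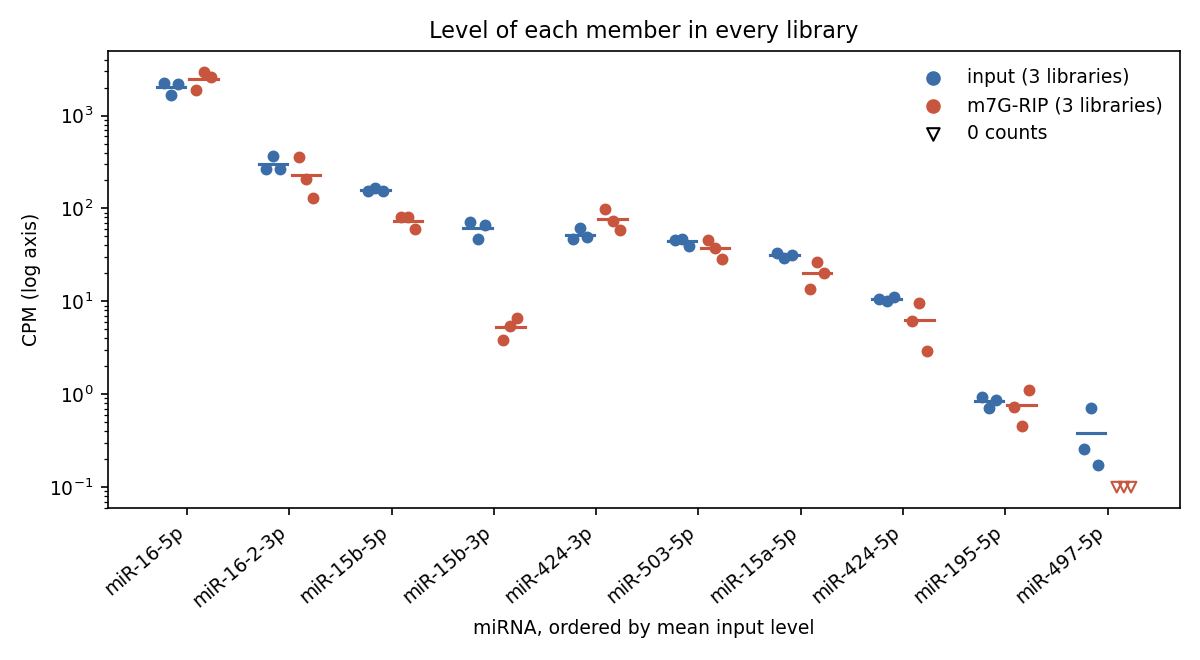
CPM (log axis) of the 10 members in each of the 3 input and 3 m7G-RIP libraries; points are libraries, bars are group means, and open triangles mark 0 counts. miR-15b-3p drops from 47.3 to 71.2 CPM in the input to 3.88 to 6.63 CPM in m7G-RIP, while the points of miR-16-5p overlap.

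Total counts ranged from 16466178 to 19628046 in the input and from 1654102 to 3105129 in m7G-RIP. At these depths 3 counts equal 0.235 to 0.262 CPM in input libraries and 0.676 to 1.11 CPM in m7G-RIP libraries, a floor that covers counting error only. The zero of the log2 scale depends on how libraries are scaled: with total counts alone the median log2 value of all tested miRNAs moved by 1.09, and with DESeq2's size factors by -0.34. The members moved along with it. Among all tested miRNAs, total counts gave 55.2% enriched and 24.8% depleted, upper-quartile factors 52.2% and 28.4%, DESeq2's size factors 35.1% and 42.8%, and DESeq2's Wald test 34.2% and 42.1%. The replicate block gave 37% and 36.9%, and with no filter 18.3% and 24.3% of 1744 miRNAs were called. Of the 8 members, total counts called 4 enriched and 1 depleted, upper-quartile factors 3 and 1, and DESeq2's size factors 0 and 6. The family's summed counts were 0.156% to 0.202% of all counts in input libraries but 0.330% to 0.489% in m7G-RIP libraries, so their share of all miRNA counts was higher in each m7G-RIP library. After TMM scaling the same sums were 2397 to 2863 CPM in the input and 2476 to 3421 CPM in m7G-RIP, and the groups overlapped.

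hsa-miR-16-5p, the main seed-bearing strand of both miR-16 hairpins, was the most abundant member. It stood at 2232, 1666 and 2193 CPM in input replicates 1, 2 and 3 and at 1870, 2979 and 2612 CPM in m7G-RIP replicates 1, 2 and 3. The groups overlapped, since m7G-RIP replicate 1 lay below 2 of the input libraries. Its log2 enrichment was 0.29 ± 0.18 (SE, edgeR adjusted p = 0.152) and it was not called. Without m7G-RIP replicate 1 it was 0.43 and past the threshold (edgeR adjusted p = 0.0157), and without m7G-RIP replicate 2 it was -0.016. Because the sequence lies at 2 loci, a read of it may have been counted at both. Of the counts of at least 10 for miRNAs at 2 loci 73.2% were even, against 51.3% for miRNAs at 1 locus, and all 21 such counts for miRNAs at 4 loci were multiples of 4. For miR-16-5p 4 of 6 counts were even. Its level relative to members at 1 locus is therefore uncertain by up to a factor of 2, and its log2 enrichment is not touched by a factor that all libraries share.

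hsa-miR-15b-5p, which shares its seed with miR-16-5p and its host intron with miR-16-2, was depleted. Its CPM was 153, 165 and 154 in the input and 80.8, 80.2 and 60.8 in m7G-RIP. Each m7G-RIP value was below every input value, and the log2 enrichment was -1.09 ± 0.17 (SE, edgeR adjusted p = 7.73e-05), a level 2.12 times lower. This call was kept without each library in turn, between -1.30 and -1.03, but with total counts the value was 0.00059. hsa-miR-15a-5p, its paralogue from chromosome 13, had 33.3, 29.1 and 31.8 CPM in the input and 13.6, 26.3 and 20.3 CPM in m7G-RIP. Here too the groups did not overlap, with m7G-RIP replicate 2 nearest to the input. The log2 enrichment was -0.65 ± 0.26 (SE, edgeR adjusted p = 0.0373). The call was lost without input replicate 1 (-0.60), input replicate 2 (-0.69), input replicate 3 (-0.56) or m7G-RIP replicate 1 (-0.45), and with the replicate number as a block (edgeR adjusted p = 0.0635). miR-15a-5p and miR-15b-5p differ at 4 of 22 bases but at 1 of the first 16, so where mapping allows a mismatch, short reads of either could count for the other.

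In log2 enrichment the 3p members lay at -3.56, -0.38 and 0.56, and the tested 5p members between -1.09 and 0.29. The wider spread of the 3p members came from miR-15b-3p alone. hsa-miR-15b-3p, the passenger arm of MIR15B, had 835, 604 and 758 counts in the input and 16, 24 and 18 in m7G-RIP, which is 71.2, 47.3 and 66.1 CPM against 3.88, 5.40 and 6.63 CPM. All m7G-RIP values were far below all input values, by a mean factor of 11.8. The log2 enrichment was -3.56 ± 0.29 (SE, edgeR adjusted p = 1.11e-07), the lowest among the members and with 11.1% of all tested miRNAs lower still. It stayed depleted under each scaling, filter and test tried, from -3.90 with DESeq2's size factors to -2.46 with total counts.

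hsa-miR-16-2-3p, the passenger arm of the neighbouring hairpin, had 268, 370.2 and 268 CPM in the input and 355, 209 and 129 CPM in m7G-RIP. m7G-RIP replicate 1 lay within the input range and replicates 2 and 3 below it. The log2 enrichment was -0.38 ± 0.28 (SE, edgeR adjusted p = 0.223), and without m7G-RIP replicate 1 it was -0.87 and past the threshold (edgeR adjusted p = 0.00216). These passenger arms come from hairpins 59 bases apart and have the same length and the same base composition (3 G, 40.9% U, 22.7% A and 22.7% C), yet their log2 enrichments lay 3.17 apart. Within a library, miR-16-2-3p had 3.76, 7.82 and 4.05 times the counts of miR-15b-3p in input replicates 1, 2 and 3, and 88.8, 37.9 and 18.9 times in m7G-RIP replicates 1, 2 and 3. This contrast was chosen after its values were seen and has no test.

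hsa-miR-424-3p was the only member called enriched. It stood at 47.0, 60.9 and 49.1 CPM in the input and at 99.0, 73.0 and 58.2 CPM in m7G-RIP. m7G-RIP replicate 3 lay below input replicate 2, so the groups overlapped. The log2 enrichment was 0.56 ± 0.22 (SE, edgeR adjusted p = 0.0325). The call was lost without input replicate 1 (0.49), input replicate 3 (0.58), m7G-RIP replicate 1 (0.30) or m7G-RIP replicate 2 (0.44), and with the replicate number as a block (edgeR adjusted p = 0.0646). hsa-miR-424-5p, the seed-bearing arm of the same hairpin, was rarer in these cells than its 3p partner. It had 10.7, 10.1 and 11.2 CPM in the input and 6.07, 9.68 and 2.95 CPM in m7G-RIP, the last from 8 counts. All m7G-RIP values were below all input values, and the log2 enrichment was -0.72 ± 0.38 (SE, edgeR adjusted p = 0.0935). Without m7G-RIP replicate 2 it was -1.33 and past the threshold (edgeR adjusted p = 0.00828).

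hsa-miR-503-5p, from the same transcript, had 46.3, 46.9 and 39.4 CPM in the input and 46.1, 37.6 and 28.7 CPM in m7G-RIP. The groups overlapped, and the log2 enrichment was -0.23 ± 0.22 (SE, edgeR adjusted p = 0.347). It has the highest number of G of the members (8) and a run of GGG, and any link to its log2 enrichment was not tested. miR-503-5p, miR-424-3p and miR-16-2-3p were each highest in m7G-RIP replicate 1 and lowest in replicate 3 among the m7G-RIP libraries, whereas miR-16-5p and miR-15a-5p were lowest in replicate 1.

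**Figure D2:**
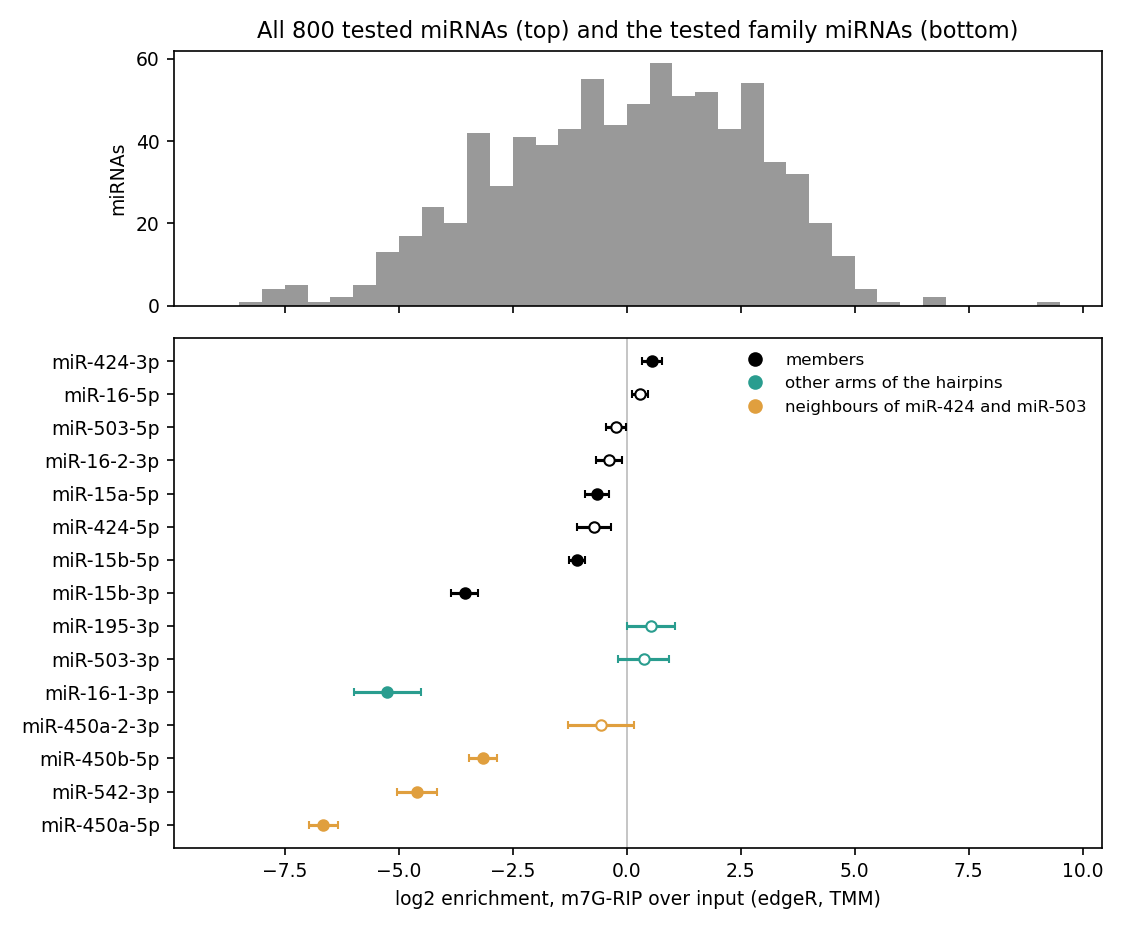
Top, log2 enrichment of m7G-RIP over input for all 800 tested miRNAs (number of miRNAs per bin of 0.5); bottom, the same value with its standard error for the tested members, other arms of their hairpins and neighbours of miR-424 and miR-503, with filled points called at an adjusted p under 0.05. Apart from miR-15b-3p at -3.56, the members lie between -1.09 and 0.56, in the middle of the distribution.

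hsa-miR-195-5p and hsa-miR-497-5p, from chromosome 17, were close to the detection limit. miR-195-5p had 11, 9 and 10 counts in the input and 3, 2 and 3 in m7G-RIP. Summed over the libraries this is 0.834 CPM against 0.710 CPM, a ratio of m7G-RIP to input of 0.850 with a 95% exact binomial interval from 0.337 to 1.90, so a difference was not detectable at this depth. It differs from miR-16-5p at 2 of 21 bases, and miR-16-5p was far more abundant, so the few counts of miR-195-5p cannot be told apart from misassigned reads. miR-497-5p had 3, 9 and 2 counts in the input and 0 in each m7G-RIP library. The input sum is 0.389 CPM, and a floor of 3 counts over the m7G-RIP group is 0.266 CPM. Without input replicate 2, which holds 9 of the 14 counts, the input level was 0.216 CPM and under this floor. After TMM scaling the ratio of m7G-RIP to input was 0, with a 95% exact binomial interval from 0 to 0.961 that covers counting error only. With total counts the floor, 0.382 CPM, was above the input level of 0.265 CPM. A loss was therefore not established at this depth, since it depended on the scaling and on input replicate 2.

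In the input the members stood in the order miR-16-5p, miR-16-2-3p, miR-15b-5p, miR-15b-3p, miR-424-3p, miR-503-5p, miR-15a-5p, miR-424-5p, miR-195-5p and miR-497-5p, with mean CPM from 2030.2 ± 316 (SD, n = 3) down to 0.378 ± 0.286 (SD, n = 3). Of neighbours in this order, miR-15b-3p and miR-424-3p overlapped between libraries, as did miR-195-5p and miR-497-5p, and miR-424-3p and miR-503-5p lay only just apart (47.0 against 46.9 CPM where nearest). In m7G-RIP miR-15b-3p fell from the fourth place to the eighth, behind miR-424-5p, with overlapping values. The order of the members by log2 enrichment was the same under each scaling, with no filter, in DESeq2's Wald test, with the replicate block and without each input library, and it changed without each m7G-RIP library.

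**Figure D3:**
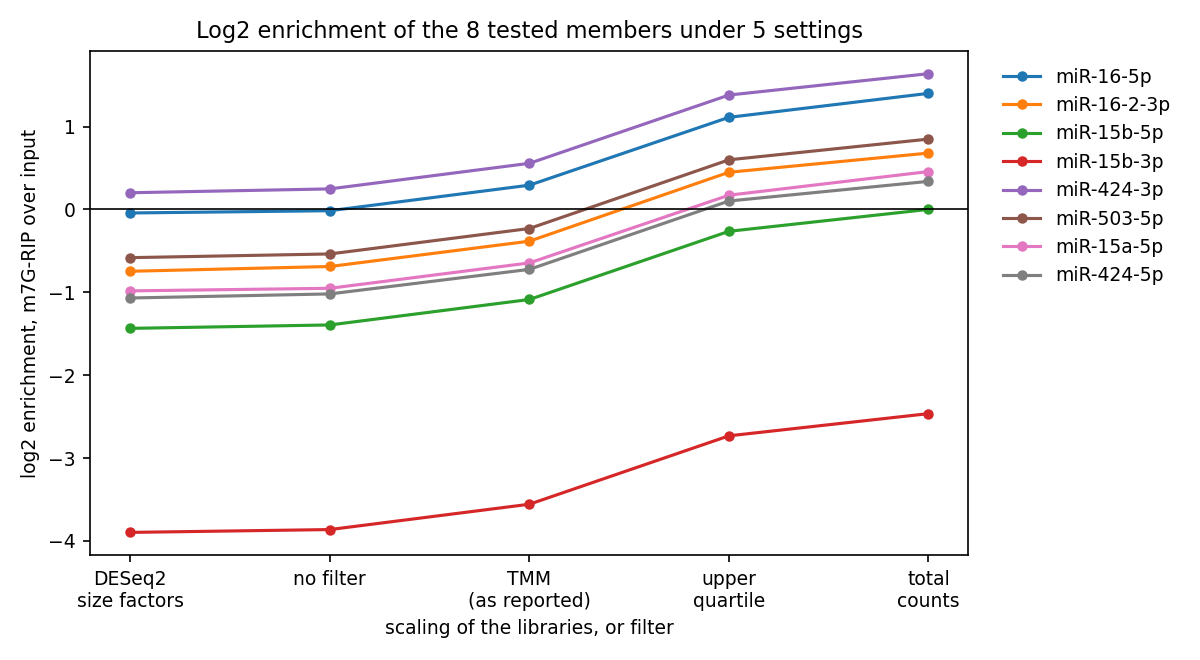
Log2 enrichment of the 8 tested members under TMM, DESeq2's size factors, upper-quartile factors and total counts, and with no filter; lines join the values of 1 miRNA. The members keep their order while all values shift, and miR-15b-3p alone stays below -2 throughout.

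Ratios of 2 miRNAs within a library do not depend on the scaling, and were used to ask whether arms of a hairpin, or 5p miRNAs of a shared transcript, changed in proportion. Of 14 such pairs, 10 had both miRNAs tested, and each ratio was compared between the groups with an exact permutation test (two-sided, 3 against 3 libraries), which cannot give a p under 0.1. For 6 pairs the groups did not overlap, each with this smallest p of 0.1 (0.167 adjusted over the 10 pairs, exact permutation test). Lack of overlap was common: the CPM of m7G-RIP lay all above input for 41.4% of all tested miRNAs and all below for 40.8%. No such share was computed over pairs of other miRNAs. None of the 10 could therefore pass a threshold of 0.05.

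The arms of MIR15B and of MIR424 differed between the groups in opposite directions. The log2 ratio of miR-15b-5p to miR-15b-3p was 1.38 ± 0.37 (SD, n = 3) in the input and 3.79 ± 0.59 (SD, n = 3) in m7G-RIP, a 5.32-fold difference towards the 5p arm. The log2 ratio of miR-424-5p to miR-424-3p was -2.28 ± 0.26 (SD, n = 3) in the input and -3.71 ± 0.71 (SD, n = 3) in m7G-RIP, 2.68-fold towards the 3p arm. For MIR424 the groups lay close where nearest, at -2.59 in input replicate 2 and -2.90 in m7G-RIP replicate 2. For MIR15B the nearest values were 1.80 in the input and 3.16 in m7G-RIP. The log2 ratio of miR-16-5p to miR-16-1-3p was 8.12 ± 0.52 (SD, n = 3) in the input and 13.36 ± 1.60 (SD, n = 3) in m7G-RIP. This difference of 5.24 rests on 2, 0 and 0 counts of miR-16-1-3p in m7G-RIP and so on the 0.5 added to each count. For miR-16-5p and miR-16-2-3p the groups overlapped, with a log2 difference of 0.77 and values between single libraries from -0.66 to 2.17. As a reference, the 5p and 3p arms of 194 miRNA names had both been tested. They include miR-15b, miR-424 and miR-503 but not the miR-16 pairs, whose 3p names carry a locus number. Over the 194, the 5p minus 3p log2 enrichment had a median of 0.91 with quartiles of -0.79 and 2.84, and in 53.6% of them the arms differed by at least 2. The difference of MIR15B, 2.47, was above 69.6% of these that of MIR424, -1.28, above 19.6%, and that of miR-16-5p and miR-16-1-3p, 5.55, above 94.8%.

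**Figure D4:**
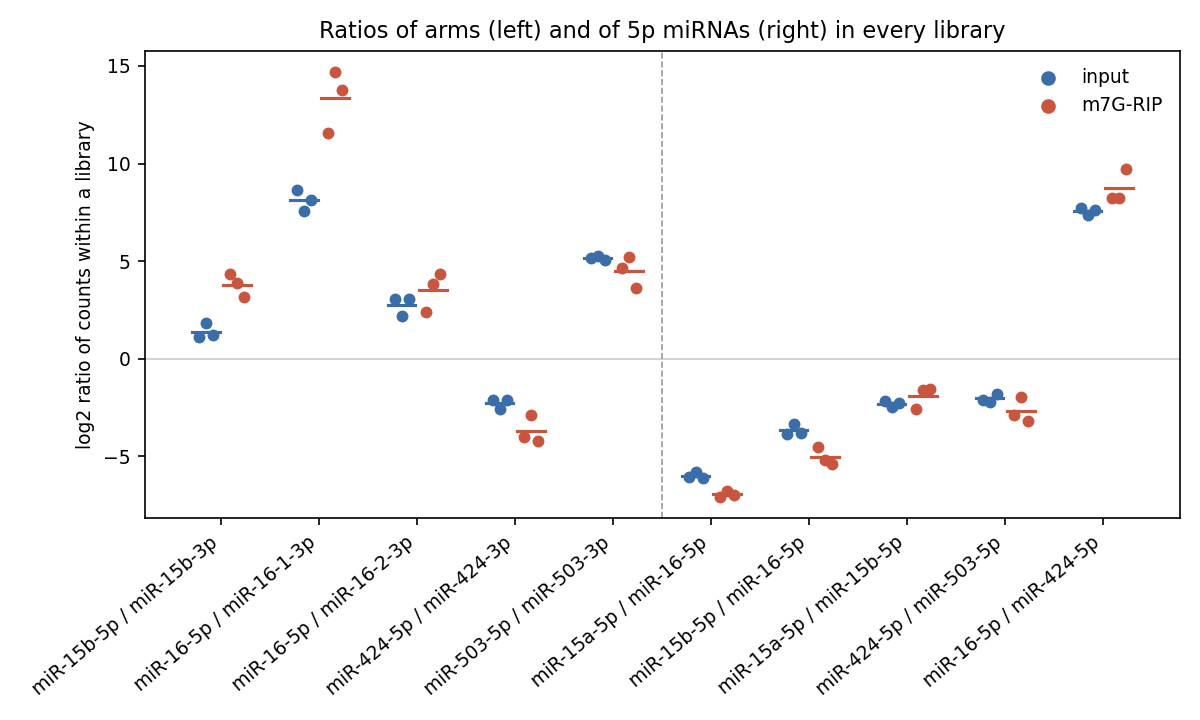
Log2 ratio of the counts of 2 miRNAs within each library, for 5 arm pairs (left of the dashed line) and 5 pairs of 5p miRNAs (right); points are libraries and bars group means. The ratio of miR-15b-5p to miR-15b-3p lies between 1.10 and 1.80 in the input and between 3.16 and 4.34 in m7G-RIP, while that of miR-424-5p to miR-424-3p goes down.

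Among the 5p miRNAs with the same seed, miR-16-5p, pooled over its 2 loci, stood higher relative to miR-15a-5p and miR-15b-5p in each m7G-RIP library than in any input library. The log2 ratio of miR-15a-5p to miR-16-5p was -6.00 ± 0.15 (SD, n = 3) in the input and -6.97 ± 0.14 (SD, n = 3) in m7G-RIP, a 1.96-fold difference. That of miR-15b-5p to miR-16-5p was -3.68 ± 0.30 (SD, n = 3) and -5.05 ± 0.47 (SD, n = 3), a 2.60-fold difference. The log2 ratio of miR-16-5p to miR-424-5p was higher by 1.17 in m7G-RIP, without overlap. The ratio of the paralogues miR-15a-5p and miR-15b-5p differed by 0.41 with overlapping groups, and that of miR-424-5p to miR-503-5p by -0.64, also with overlap.

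As a share of the family's counts, miR-16-5p made up 78.0%, 69.5% and 77.9% in the input and 75.5%, 87.1% and 89.5% in m7G-RIP. The groups overlapped through m7G-RIP replicate 1 (exact permutation test, two-sided, p = 0.3, 0.429 adjusted over the 10 members). miR-15b-3p took 2.49%, 1.97% and 2.35% in the input and 0.157%, 0.158% and 0.227% in m7G-RIP, and miR-15b-5p 5.35%, 6.89% and 5.48% against 3.27%, 2.34% and 2.08%. Shares did not overlap for miR-15a-5p, miR-15b-5p, miR-15b-3p, miR-424-5p and miR-497-5p, each lower in m7G-RIP with the smallest p the exact permutation test can give, 0.1 (0.2 adjusted over the members). For miR-497-5p this rests on 3, 9 and 2 input counts and is limited by the floor given above. Shares of a library depend on each other, since a higher share of miR-16-5p lowers the others, so these are not separate results. The CPM of m7G-RIP lay all below input for 40.8% of all tested miRNAs. That is another measure, and no such figure was computed for shares within other families.

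Of 5 other arms of the same hairpins, 3 were tested, 1 was depleted and 0 were enriched, beside 38.1% depleted and 40.1% enriched among all tested miRNAs. Their median log2 enrichment was 0.37. The depleted one was miR-16-1-3p, the passenger arm of MIR16-1, with 66, 111 and 88 counts in the input and 2, 0 and 0 in m7G-RIP. Summed over the libraries this is 41.5-fold lower in m7G-RIP, with a 95% exact binomial interval from 11.4 to 345 that covers counting error only. miR-195-3p, which has the same seed as miR-16-2-3p, stood at 1.71, 1.33 and 1.48 CPM in the input and 3.40, 1.58 and 1.47 CPM in m7G-RIP and was not called. miR-16-1-3p, miR-16-2-3p and miR-195-3p are close in sequence and are shown for that reason.
hsa-miR-16-1-3p: cCAGUAUUaacugugcugcuga
hsa-miR-16-2-3p: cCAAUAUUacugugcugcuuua
hsa-miR-195-3p: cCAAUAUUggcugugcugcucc

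miR-16-2-3p shares a run of 11 bases with miR-16-1-3p and of 10 bases with miR-195-3p. Their log2 enrichments were -0.38 for miR-16-2-3p, -5.25 ± 0.74 (SE) for miR-16-1-3p and 0.53 ± 0.53 (SE) for miR-195-3p. Without m7G-RIP replicate 1, the only m7G-RIP library with counts of miR-16-1-3p, its fitted value was -8.99, which then depends on the prior count. miR-503-3p had 15, 15 and 13 counts in the input and 7, 4 and 6 in m7G-RIP and was not called. miR-15a-3p had 2, 5 and 0 counts in the input and 0 in m7G-RIP, and miR-497-3p had 0 in all libraries. The 2 other miRNAs with the same bases 2 to 7 as miR-16-5p were not tested, with 2 to 4 counts per input library for miR-6838-5p and 0 in all libraries for miR-646.

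The miRNAs encoded next to miR-424 and miR-503 on chromosome X, known to be transcribed with them, numbered 7, of which 4 were tested, 3 were depleted and 0 were enriched, beside 38.1% depleted and 40.1% enriched among all tested miRNAs. The median log2 enrichment of the 4 was -3.88, and the 3 depleted ones had lower log2 values than miR-424-5p, miR-424-3p or miR-503-5p. miR-450a-5p went from 70.2, 76.9 and 72.4 CPM in the input to 0.971, 0.450 and 0.737 CPM in m7G-RIP, from 2 to 4 counts per library, a log2 enrichment of -6.65 ± 0.33 (SE, edgeR adjusted p = 7.97e-10). Its sequence lies at 2 loci, so its level has the same limit as that of miR-16-5p, while its log2 enrichment does not. In m7G-RIP it was rarer than miR-424-3p or miR-503-5p in each library. miR-542-3p had a log2 enrichment of -4.61 ± 0.44 (SE) and miR-450b-5p of -3.16 ± 0.31 (SE), both depleted, and without m7G-RIP replicate 2 the value of miR-542-3p was -5.58. miR-450a-2-3p stood at 2.30, 2.19 and 1.83 CPM in the input and at 0, 2.48 and 1.84 CPM in m7G-RIP and was not called. The difference between these neighbours and the members was not tested.

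The number of G in a mature miRNA was set beside the log2 enrichment as a description, since m7G is formed on guanosines. For 714 of the 800 tested miRNAs the table held a sequence. Across them Spearman's rho between the percent of G and log2 enrichment was 0.50, and between the percent of U and log2 enrichment -0.36; miRNAs share libraries and are not independent. The relation was not even: the median log2 enrichment was 0.77 at 2 G, -0.73 at 3 G, -1.71 at 4 G, -0.98 at 6 G, 0.93 at 8 G and 3.23 at 12 G. The members have 3 to 8 G, where the 714 miRNAs ran from 0 to 15 G. At 5 G, the most common number (102 miRNAs), the median was -1.44. miR-15b-3p lay under the lower quartile of miRNAs with 3 G, which was -2.33. miR-16-2-3p, with as many G, lay above their median, as miR-15b-5p and miR-424-5p lay above the median for 4 G. miR-15a-5p, miR-16-5p and miR-424-3p all have 6 G and had log2 enrichments from -0.65 to 0.56, and miR-424-3p was above the upper quartile of 0.29. miR-503-5p was below the median for 8 G.

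**Figure D5:**
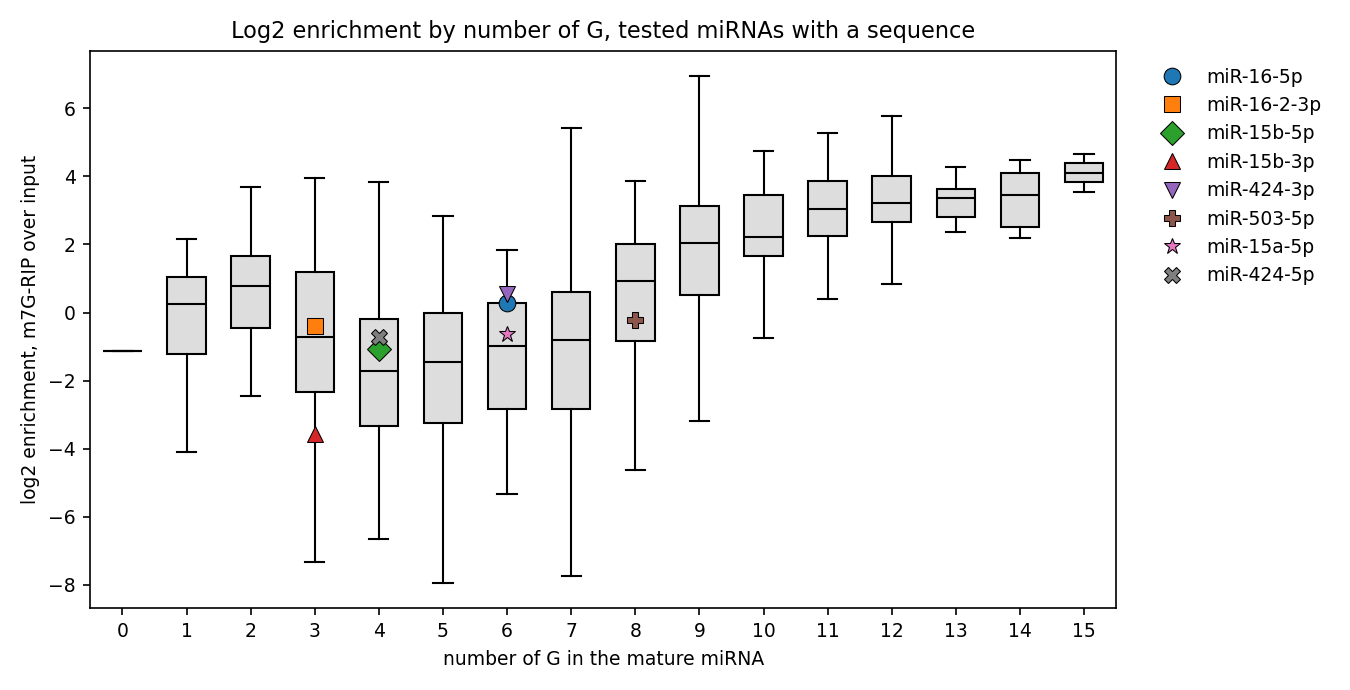
Log2 enrichment of the 714 tested miRNAs with a sequence by the number of G in the mature miRNA (boxes, quartiles and median; whiskers, up to 1.5 times the quartile range; points beyond are not drawn), with the 8 tested members as symbols. miR-15b-3p and miR-16-2-3p share a count of 3 G and lie 3.17 apart.

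The miRNAs whose CPM moved most like that of miR-16-5p over the 6 libraries, by the root mean square difference of centred log2 CPM among 259 others whose average log2 CPM reached 5, were miR-6511a-3p (0.12), miR-373-5p (0.14) and miR-146a-5p (0.15), where the median over the 259 was 1.03. For miR-424-3p they were miR-98-5p (0.14), miR-615-3p (0.15) and let-7f-5p (0.15), where the median was 1.08.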

How the data were processed

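Small RNA was sequenced from Caco-2 cells in 3 input and 3 m7G-RIP libraries. The table deposited by the authors holds raw counts for mature miRNAs, whole numbers without normalization, made by trimming adaptors with Trimmomatic, mapping to GRCh38 and counting with featureCounts on miRBase 22. The study's methods name STAR as the aligner, with up to 10 loci and 1 mismatch per read, whereas the submitters' processing notes name Bowtie2. How reads with several loci were counted is not given in the sources used here.

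Counts were analysed with edgeR 4.0.16 in R 4.3.3: filterByExpr (minimum count 10, minimum total 15), TMM factors, quasi-likelihood test and Benjamini-Hochberg adjustment over 800 miRNAs. CPM are counts in every 1000000 of the TMM-scaled library size. The standard error was the absolute log2 enrichment divided by the square root of F. Ratios within a library had 0.5 added to each count and were compared, like shares, with exact permutation tests in scipy 1.17.1. The steps were tested on simulated data. Libraries were grouped by their titles. No 2 libraries of a group were copies (chi-square per degree of freedom at least 20.9).

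The members and lists were chosen with earlier results of these data known. All members were named, with other arms of their hairpins, miRNAs with the same bases 2 to 7, neighbours of miR-424 and miR-503, and the 3 miRNAs most like the most abundant and the most enriched member. Sequences and hairpin positions are RefSeq's (GRCh38.p14) and host genes GENCODE 44's. Alternatives were other scalings, filters and thresholds, DESeq2 1.42.0, the replicate block, leaving out each library, and, added after the data were seen, halved miR-16-5p counts.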

Additional observations from a re-analysis of the deposited data

How the results depend on the processing

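The number of members called depends on the scaling, as most lie near zero. Enriched members, 1 as reported, numbered 4 using total counts and 3 using upper-quartile factors. They numbered 0 under the replicate block, DESeq2's size factors or Wald test, an adjusted p under 0.01, no filter, or a filter asking each library for 10 counts, and 0 to 1 with each library left out. Depleted members, 3 as reported, were 6 with DESeq2's size factors or its Wald test, 5 with no filter, 1 with total counts or upper-quartile factors, and 2 to 4 with each library left out. Among all tested miRNAs, 35.2% were enriched and 33.9% depleted at an adjusted p under 0.01. With the filter asking each library for 10 counts these shares were 42.7% and 41.1%. With each library left out they were 31.8% to 40.4% and 35% to 39%. Signs reversed with total counts and upper-quartile factors for miR-15a-5p (0.46 and 0.17), miR-16-2-3p (0.68 and 0.45), miR-424-5p (0.34 and 0.10), miR-503-5p (0.85 and 0.60) and miR-450a-2-3p (0.54 and 0.24), and with total counts for miR-15b-5p (0.00059). miR-16-5p reversed with DESeq2's size factors (-0.043), its Wald test (-0.043), no filter (-0.016) and without m7G-RIP replicate 2 (range with each library left out -0.016 to 0.43). Without m7G-RIP replicate 1 miR-195-3p (range -0.0071 to 0.62) and miR-450a-2-3p (range -1.58 to 0.029) reversed. The cause was not tested. miR-15b-3p kept its sign and its side of the threshold in each.

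Of 89 pair ratios and 77 shares under other settings, the shares with halved miR-16-5p counts included, 0 ratios and 1 share reversed. The difference of miR-195-5p's share lay between -0.0098 and 0.0026 percentage points with each library left out. Many of the others could not reverse, so the counts say little about stability. Leaving out a library cannot flip a difference between groups without overlap, as in 6 of the 10 pairs and the shares named above. Same-numbered libraries did not deviate together (correlations -0.014, -0.028 and 0.060), so the replicate block tests no known pairing. Beside the 2 calls it removed, miR-15a-5p and miR-424-3p, the block changed no other call of a member. It cannot change a mean difference of the pair ratios, since both groups hold the same replicate numbers. The lower depth of m7G-RIP limits miR-195-5p, miR-497-5p and miR-16-1-3p.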

Other observations

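Beyond this family, divisibility of the deposited counts followed the number of genomic loci of a miRNA. Of 52 counts of at least 10 for miRNAs at 3 loci 65.4% were multiples of 3, against 31.0% of 3385 counts for miRNAs at 1 locus. Of 21 counts for miRNAs at 4 loci all were multiples of 4, against 23.8% at 1 locus. Levels of miRNAs at several loci, relative to others, carry this limit, whereas their ratio between libraries does not where the factor is shared by all libraries.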
